A study of Homo sapiens with 30 samples.

Results

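Titanium dioxide nanobelts (TiO2-NB), long flat crystals of the white pigment titania, were placed on a model of the gut lining at 100 µg/ml for 1 h, and the RNA of those cells was compared with that of cells given fresh medium for the same hour. The comparison uses 6 of the 30 arrays of the series, chosen by their labelled particle, dose and time: 3 biological replicates with nanobelts and 3 controls. All groups share the same culture, in which Caco-2 and HT29-MTX cells were mixed at 75% and 25% and grown on Transwell inserts, which have a porous floor, for 14 days. The Caco-2 line comes from a human colorectal carcinoma and takes on features of absorptive enterocytes when kept confluent. HT29-MTX cells, a methotrexate-selected derivative of another human colon carcinoma line, secrete mucus. The nanobelts were given in 1.5 ml of medium in the apical compartment, over 2.5 ml of fresh medium below, and controls received fresh medium in both compartments. The labels name no particle-free suspension that was handled as the nanobelts were. Other groups used below are 10 µg/ml of nanobelts at 1 h, multi-walled carbon nanotubes (MWCNT) at 10 and 100 µg/ml at 1 h, and 100 µg/ml of nanobelts and control at 24 h, each with 3 arrays. In the text "exposed" means 100 µg/ml of nanobelts for 1 h unless another group is named.

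Within an hour of a stimulus, epithelial cells change mainly the transcripts that turn over fast. Among these are the immediate early genes switched on through the ERK kinases, the feedback inhibitors that ERK and NF-kB signalling induce against themselves, and short-lived receptors and stress genes. Epithelial cells sense growth factors through the EGF receptor, microbial products and cytokines through NF-kB, foreign planar compounds through the aryl hydrocarbon receptor, and shortage of amino acids or damaged proteins through ATF4 and the heat shock factors. Fresh medium is a stimulus of this kind too, and both arms of the comparison received it.

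The values are log2 levels of 22215 probe sets, so a difference of 1 is a doubling, and ± is the standard error of a log2 change (n = 3 arrays per group) unless SD is named. A gene is called when the Benjamini-Hochberg adjusted p of limma, a moderated linear model, is under 0.05. The 6 array medians lay between 6.46 and 6.49. The listed enterocyte markers were strongly expressed in controls: APOA1, the main protein of HDL, had a level of 14.1 ± 0.019 (SD, n = 3) and FABP1, a fatty acid binding protein, of 13.8 ± 0.028, against a median gene at 7.20. Of 13 measured enterocyte markers 11 lay above that median, and of 11 mucus markers 6, led by AGR2 at 13.1 and TFF1 at 12.8, while the gel-forming mucins MUC2 (6.1), MUC5AC (6.6) and MUC5B (5.7) lay below it. Leukocyte markers, listed to look for cells that the culture should not hold, averaged 5.62 to 5.70 on control arrays and 5.66 to 5.80 on exposed arrays, and 2 of 20 were above the median gene. The markers of fibroblasts, endothelium and muscle averaged 5.34 to 5.37 and 5.34 to 5.43. The probe set for the 5′ end of 18S ribosomal RNA stood at 8.61, 8.62 and 8.81 on the controls and at 8.91, 10.10 and 9.43 on the exposed arrays, with exposed replicate 2 the highest (difference 0.80, exact permutation p = 0.1, the smallest that 3 arrays against 3 can give). The 18S middle and 28S 5′ probe sets were also higher, by 0.42 and 0.34 (exact permutation p = 0.2 and 0.1). The 18S 3′, 28S middle and 28S 3′ probe sets differed by 0.09, -0.11 and 0.11 (exact permutation p = 0.6, 0.1 and 0.3). Counts without exposed replicate 2 are given beside many of the gene groups, and the fit was repeated with the 18S 5′ level as a covariate.

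After 1 h, 1872 probe sets (8.43%) were called, 588 higher (2.65%) and 1284 lower (5.78%) in the exposed cells. Taken as 1 probe set per gene, 367 of 11963 genes rose (3.07%) and 890 fell (7.44%), so falls outnumbered rises in this scaling. The changes were small: the median called rise was 0.24 and the median called fall was -0.24, and only 4 genes rose and 31 fell by at least 1.5-fold, 5 genes by at least 2-fold. After a second quantile normalisation 791 probe sets were higher and 1050 lower, so the balance of rises and falls depends on how the arrays are scaled. Fitted on the 6 arrays alone, without the spread of the other groups, 269 were called (70 higher, 199 lower), of which 258 are among the 1872. In a mixed culture a lower level can mean fewer cells of a kind or less RNA per cell, which cannot be told apart here. The count was 1175 without exposed replicate 2, 1234 without control replicate 3 and 1464 with the 18S covariate.

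**Figure D1:**
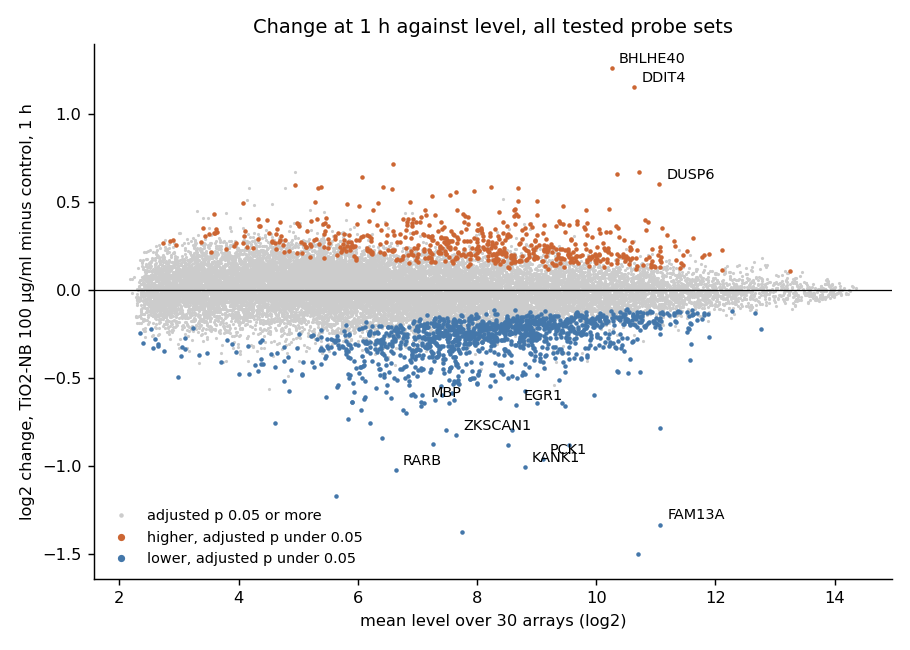
Log2 change at 1 h (100 µg/ml TiO2-NB minus control, vertical axis) against mean log2 level over 30 arrays (horizontal axis) for 22215 probe sets, 588 called higher in orange, 1284 called lower in blue, the others grey. The 2 unnamed points at -1.38 and -1.50 are other probe sets of FAM13A, and the changes of BHLHE40, DDIT4 and FAM13A stand apart from the rest.

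The largest rise was that of BHLHE40, a transcriptional repressor of the circadian clock that also responds to hypoxia and to growth factors. Its level was 8.997, 9.14 and 8.88 on the 3 controls and 10.48, 10.27 and 10.05 on the 3 exposed arrays, a rise of 1.26 ± 0.11 or 2.40-fold (adjusted p = 7.6e-08). DDIT4, which shuts down mTORC1 under stress, went from 9.35, 9.61 and 9.37 to 10.79, 10.63 and 10.37, a rise of 1.15 ± 0.11 or 2.22-fold (adjusted p = 4.88e-07). For both genes the lowest exposed array was far above the highest control, and a second BHLHE40 probe set rose by 0.72 ± 0.080. Next came DUSP6, a phosphatase that removes the activating phosphates of ERK, at 10.88, 10.86 and 10.88 in controls and 11.67, 11.35 and 11.42 in exposed cells (0.60 ± 0.093). The controls agreed closely here, and exposed replicate 1 was the highest of the 6.

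Other rises among the 20 largest fell into several kinds. TIGAR, a p53 target that diverts glucose into the pentose phosphate pathway, rose by 0.58 ± 0.068 and CHAC1, which degrades glutathione, by 0.59 ± 0.13. EOGT, the ER enzyme that adds GlcNAc to EGF repeats, rose by 0.58 ± 0.10, the endothelial lipase LIPG by 0.54 ± 0.076 and the S-adenosylmethionine synthase MAT2A by 0.46 ± 0.048. Others encode nuclear proteins: the SUMO-directed ubiquitin ligase RNF111 (0.58 ± 0.054), the transcription factor SP2 (0.56 ± 0.062), the NuRD subunit GATAD2A (0.51 ± 0.062), RIF1 of replication timing and repair (0.50 ± 0.088) and the nuclear pore protein NUP98 (0.45 ± 0.056). The endocytic kinase BMP2K rose by 0.57 ± 0.088, the kinase scaffold AKAP12 by 0.49 ± 0.099 and PHLDA2, an imprinted gene of a pleckstrin-like protein, by 0.48 ± 0.074. NUP98 and RIF1 are uncertain, because other probe sets lay at -0.02 and 0.01 for NUP98 and at -0.06 for RIF1, none called. For BMP2K 1 other probe set rose, by 0.48, and 2 were not called.

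The largest fall was that of FAM13A. Its level was 11.03, 11.32 and 11.003 on controls and 9.82, 9.68 and 9.85 on exposed arrays, a fall of 1.33 ± 0.089 or 2.52-fold (adjusted p = 1.58e-09), and both other probe sets of the gene also fell, by 1.38 and 1.50. KANK1, which links integrin adhesions to microtubules, went from 8.85, 8.95 and 8.91 to 7.74, 7.87 and 8.08, a fall of 1.01 ± 0.065. PCK1, which makes phosphoenolpyruvate in the committed step of gluconeogenesis, stood at 10.04, 10.45 and 10.18 in controls and at 9.35, 9.18 and 9.26 in exposed cells, a fall of 0.96 ± 0.13 (adjusted p = 4.82e-05). The choice of the largest falls required all exposed arrays to lie below all controls. In each of these 3 genes the gap was wider than the spread within either group.

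Further falls of this size were found in regulators of transcription and RNA. KHDC4, an RNA-binding protein of splicing, fell by 0.88 ± 0.081, MXI1, which competes with MYC for its partner MAX, by 0.78 ± 0.084, and the zinc finger gene ZKSCAN1 by 0.83 ± 0.16. The signalling adaptor SLA fell by 0.79 ± 0.079, GRAMD2B by 0.79 ± 0.071, the microtubule-bound ubiquitin ligase MID1 by 0.66 ± 0.061, the centrosomal protein KIZ by 0.66 ± 0.082 and the Golgi mannosidase MAN1C1 by 0.68 ± 0.15. KIAA1107, N4BP2L1 and FAM200C completed the list with falls of 0.75 ± 0.13, 0.70 ± 0.096 and 0.64 ± 0.11. MBP, named for myelin basic protein, fell by 0.64 ± 0.17 on the probe set used here, while its 3 other probe sets lay at 0.07, 0.16 and 0.12 and were not called. The MBP call ended without control replicate 2 or without exposed replicate 1 or 3 (adjusted p up to 0.0649), and the other 39 of these 40 genes kept their call with any 1 of the 6 arrays left out.

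**Figure D2:**
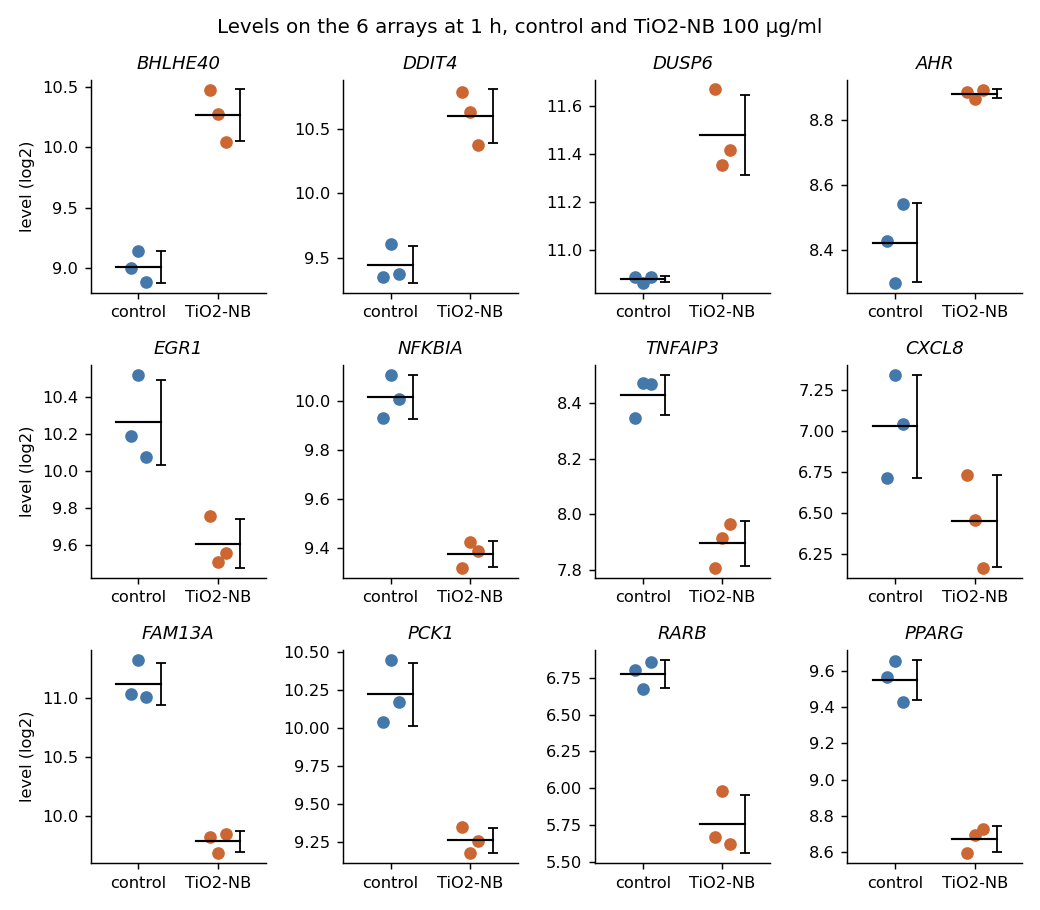
Log2 level on each of the 6 arrays at 1 h for 12 genes, controls in blue and 100 µg/ml TiO2-NB in orange, with the mean (line) and the SD (bar) of 3 arrays. Each panel has its own vertical axis, which does not start at 0, and CXCL8 is the gene whose groups overlap.

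Of 24 measured ERK inhibitors and EGF-family ligands 5 rose and 1 fell (median change 0.06 against -0.0039 for all genes), and without exposed replicate 2 the counts were 4 and 1. DUSP6 is described above. EREG, epiregulin, a ligand of the EGF receptor, stood at 7.75, 7.82 and 7.89 in controls and at 8.63, 8.14 and 8.37 in exposed cells, a rise of 0.56 ± 0.11. PHLDA1, which ERK induces and which dampens growth signalling, rose from 8.54, 8.51 and 8.52 to 9.21, 8.94 and 8.78 (0.46 ± 0.088), again with exposed replicate 1 the highest. SPRY1, a Sprouty inhibitor of receptor signalling, rose by 0.26 ± 0.060, and that call ended without exposed replicate 1 (adjusted p = 0.0544). DUSP1, the phosphatase that acts mostly on p38 and JNK, moved the other way, from 9.54, 9.95 and 9.56 to 9.26, 9.25 and 9.22, a fall of 0.44 ± 0.098.

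Of 27 immediate early genes, transcription factors and others, 3 rose and 6 fell (2 and 5 without exposed replicate 2, 2 and 4 without control replicate 3). EGR1, a zinc finger factor that serum and ERK induce within minutes, had levels of 10.19, 10.52 and 10.08 in controls and 9.76, 9.51 and 9.56 in exposed cells, a fall of 0.66 ± 0.12 or 1.57-fold (adjusted p = 0.000642). Control replicate 2 was the highest array and exposed replicate 1 the nearest to the controls, and the groups did not overlap. CCN1, a matrix protein downstream of YAP and SRF, fell by 0.24 ± 0.052. MCL1, a short-lived survival protein, fell by 0.16 ± 0.036 on the probe set used here. The other MCL1 probe sets lay at 0.12, 0.11, 0.10 and -0.16, none called. The AP-1 subunit JUN fell by 0.39 ± 0.090, JUND rose by 0.20 ± 0.060, and BTG1 and CCN2 also fell. MYC went up from 9.999, 9.89 and 9.91 to 10.28, 10.36 and 10.24 (0.36 ± 0.060), and ZFP36, which destabilises cytokine mRNAs, from 8.52, 8.62 and 8.46 to 9.03, 8.89 and 8.81 (0.37 ± 0.059). Among 13 Kruppel-like factors 1 rose (7.69%) and 2 fell (15.4%), against 3.07% and 7.44% of all genes. KLF11 fell by 0.34 ± 0.058, KLF10 by 0.28 ± 0.069, and KLF5, a factor of proliferating gut cells, rose by 0.33 ± 0.077. The KLF10 call ended without control replicate 3 or exposed replicate 2 (adjusted p up to 0.109) and that of KLF5 without control replicate 2 (0.0517).

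The promoter of EGR1 is shown because serum response factor, which acts with ERK on this gene, binds CArG boxes. The 300 bases from 250 before to 50 after the start of the gene (RefSeq, GRCh38.p14, chr5:138465229-138465528, plus strand) hold 2 matches to the CArG box, in capitals, at -105 to -96 and -83 to -74 from the start. Such a box, searched on both strands, was found in 1.29% of 27305 promoters of the same length.
EGR1: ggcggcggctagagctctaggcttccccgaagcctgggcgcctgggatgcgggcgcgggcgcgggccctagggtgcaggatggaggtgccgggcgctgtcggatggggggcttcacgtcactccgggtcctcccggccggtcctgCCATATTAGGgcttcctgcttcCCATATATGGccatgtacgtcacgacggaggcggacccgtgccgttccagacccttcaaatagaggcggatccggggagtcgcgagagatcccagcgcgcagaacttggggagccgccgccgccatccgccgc
Among genes with a promoter in that collection the box was found in 1.28% of all 9563 measured, 1.01% of 298 that rose and 0.947% of 739 that fell. A match describes the letters and shows no binding.

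Of 34 measured NF-kB and inflammation genes 2 rose and 7 fell (median change -0.08), 1 and 4 without exposed replicate 1 or exposed replicate 2 and 0 and 4 without control replicate 3. The falls were in the inhibitors NFKBIA, TNFAIP3 and NFKBIE (-0.21 ± 0.055), the chemokines CXCL8 and CXCL3 (-0.32 ± 0.095, groups not overlapping), the activating kinase IKBKB (-0.22 ± 0.068) and BIRC2 (-0.13 ± 0.034), a ubiquitin ligase of TNF signalling. IKBKG, the regulatory subunit of the kinase, rose by 0.18 ± 0.048 with overlapping groups. NFKBIA, the inhibitor IkB-alpha that holds NF-kB in the cytoplasm, went from 9.93, 10.11 and 10.01 to 9.32, 9.42 and 9.39, a fall of 0.64 ± 0.054 or 1.56-fold (adjusted p = 5.23e-08). TNFAIP3, the A20 protein that ends NF-kB signalling by editing ubiquitin chains, went from 8.34, 8.47 and 8.47 to 7.81, 7.92 and 7.97, a fall of 0.53 ± 0.048 (adjusted p = 1.37e-07). In both genes the 6 arrays form clearly separate groups. CXCL8, the neutrophil attractant interleukin-8, stood at 6.71, 7.34 and 7.04 in controls and at 6.73, 6.46 and 6.16 in exposed cells (-0.58 ± 0.15, adjusted p = 0.0162). Its groups overlap, since exposed replicate 1 lay above control replicate 1, and its call ended without control replicate 2, control replicate 3 or exposed replicate 3 (adjusted p up to 0.115). RELB, a subunit of the alternative pathway, rose by 0.34 ± 0.080, a call that ended without control replicate 3 (adjusted p = 0.0557).

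The promoters of NFKBIA and TNFAIP3 are shown because both genes are textbook targets of NF-kB and moved together here. Capitals mark the kB site, searched on both strands and found in 10.8% of all 27305 promoters, in 12.9% of the 9563 measured genes with a promoter there, in 17.1% of the 298 risen genes and in 12.9% of the 739 fallen genes, the same share as over the measured genes. The match in NFKBIA (chr14:35404700-35404999, minus strand) runs from -81 to -72, and those in TNFAIP3 (chr6:137867009-137867308, plus strand) from -67 to -58 and from -55 to -46.
NFKBIA: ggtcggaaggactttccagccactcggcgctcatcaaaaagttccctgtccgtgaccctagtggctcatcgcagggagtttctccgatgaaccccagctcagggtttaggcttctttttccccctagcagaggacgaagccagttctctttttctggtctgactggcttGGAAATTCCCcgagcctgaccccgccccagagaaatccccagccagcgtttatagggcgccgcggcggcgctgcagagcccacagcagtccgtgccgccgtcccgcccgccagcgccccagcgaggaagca
TNFAIP3: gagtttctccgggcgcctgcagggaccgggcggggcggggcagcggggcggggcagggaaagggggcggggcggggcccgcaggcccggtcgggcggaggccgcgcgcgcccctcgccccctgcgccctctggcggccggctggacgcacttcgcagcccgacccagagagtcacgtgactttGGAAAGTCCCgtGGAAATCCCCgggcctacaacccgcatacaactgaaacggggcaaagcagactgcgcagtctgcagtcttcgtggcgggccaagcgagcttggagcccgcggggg
All the matches in these sequences read on the opposite strand to the gene.

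Among nuclear receptors, the retinoic acid receptor RARB and the fatty acid receptor PPARG had the largest falls. Of 33 measured genes of nuclear receptors and their coregulators 1 rose and 5 fell (1 and 3 without exposed replicate 2), and all 6 are receptor genes. RARB, retinoic acid receptor beta, went from 6.80, 6.68 and 6.86 to 5.67, 5.98 and 5.62, a fall of 1.02 ± 0.092 or 2.03-fold (adjusted p = 1.28e-07). Exposed replicate 2 was the least changed, and all 3 exposed arrays were far below the controls. The value rests on 1 of 5 probe sets: the others, with lower mean levels of 3.10 to 5.47, lay at -0.22, -0.12, 0.07 and 0.12 and were not called. CYP26A1, the enzyme that breaks down retinoic acid and is itself induced by it, stood at 6.71, 7.08 and 6.75 in controls and at 6.34, 6.04 and 6.11 in exposed cells, a fall of 0.68 ± 0.12. RXRA, the common partner of these receptors, fell by 0.22 ± 0.044. PPARG, the receptor of fatty acid derivatives, which colon epithelium carries at a high level, went from 9.57, 9.65 and 9.43 to 8.59, 8.70 and 8.73, a fall of 0.88 ± 0.064 or 1.84-fold (adjusted p = 4.04e-09), with tight groups far apart. The vitamin D receptor VDR rose by 0.21 ± 0.055 and NR5A2, a regulator of bile acid genes, fell by 0.21 ± 0.049. The calls of VDR and NR5A2 both ended without control replicate 3, that of VDR also without exposed replicate 1 and that of NR5A2 without exposed replicate 2 (adjusted p up to 0.0777). The other NR5A2 probe sets were called lower, at -0.47 and -0.28, while those of VDR lay near 0.07 and were not called.

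The RARB promoter is shown because its retinoic acid response element is the model of its kind: a direct repeat with a spacer of 5 bases (DR5) that the receptor and RXR bind, so that retinoic acid induces its own receptor. The 300 bases (chr3:25428013-25428312, plus strand) hold 1 match to the DR5 element, searched on both strands, in capitals, at -53 to -37, and a match was found in 22 of 27305 promoters (0.0806%).
RARB: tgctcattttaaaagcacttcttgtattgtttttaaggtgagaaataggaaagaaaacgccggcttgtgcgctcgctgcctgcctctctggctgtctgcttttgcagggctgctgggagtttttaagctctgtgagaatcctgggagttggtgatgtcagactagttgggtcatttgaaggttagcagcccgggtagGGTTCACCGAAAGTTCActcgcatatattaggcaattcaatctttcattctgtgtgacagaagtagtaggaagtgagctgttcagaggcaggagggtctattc
No match was found in the window of CYP26A1, and RARB is the 1 fallen gene of 739 with a match (0.135%), with 0 among the 298 risen genes.

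Of 11 measured genes of the aryl hydrocarbon receptor 5 rose, 0 fell and 6 were not called, with 5 rises without exposed replicate 2 and 4 without exposed replicate 1, and the median change was 0.23. AHR itself, which binds dioxins, tryptophan products and other planar ligands, went from 8.43, 8.30 and 8.54 to 8.89, 8.87 and 8.89, a rise of 0.46 ± 0.059 (adjusted p = 1.6e-05), with the exposed arrays nearly identical. CYP1A1, its best known target, stood at 7.45, 7.32 and 7.33 in controls and at 7.98, 7.69 and 7.70 in exposed cells (0.43 ± 0.11, adjusted p = 0.0116). CYP1A2, a close relative, rose by 0.30 ± 0.063, and its other probe set lay at 0.15, not called. The CYP1A1 call ended without exposed replicate 1, the highest array (adjusted p = 0.086). The other called members, NFE2L2 (0.23 ± 0.046) and SLC7A5 (0.27 ± 0.057), also serve other pathways, while CYP1B1, TIPARP and ALDH3A1 lay at 0.01, 0.05 and -0.03 and were not called.

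Antioxidant and metal response genes had few calls, in short lists. Of 24 NRF2 genes 2 rose (8.33%, against 3.07% of all genes) and 1 fell (4.17%, against 7.44%). The rises were NFE2L2, which encodes NRF2, and SLC7A11, the cystine transporter that feeds glutathione synthesis. The fall was AKR1C3, a ketosteroid reductase. SLC7A11 went from 7.40, 7.65 and 7.40 to 7.88, 8.03 and 7.91 (0.46 ± 0.076), and AKR1C3 fell by 0.24 ± 0.048. HMOX1, heme oxygenase and the usual sign of NRF2 activity, lay at 0.24 (adjusted p = 0.098) and NQO1 at -0.02. Of 15 enzymes that remove peroxide and superoxide 1 rose (6.67%), the secreted GPX3 by 0.20 ± 0.053. That call ended without control replicate 3 or exposed replicate 2 or 3 (adjusted p up to 0.16). None of 12 metallothionein and zinc genes was called: MT2A lay at 0.08, MT1X at 0.04 and SLC30A1, the zinc exporter, at 0.13 ± 0.048 (adjusted p = 0.113).

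Genes of the stress pathways that control protein synthesis and folding were called in part. Of 29 genes of ATF4 and the integrated stress response 5 rose and 1 fell, and the counts were the same without exposed replicate 2 (median change 0.09). The risers were DDIT4, CHAC1, SLC7A11 and both chains of an amino acid transporter, SLC7A5 from 8.37, 8.47 and 8.35 to 8.63, 8.61 and 8.75 (0.27 ± 0.057) and SLC3A2 from 10.21, 10.21 and 10.14 to 10.35, 10.34 and 10.38 (0.17 ± 0.036). The 1 fall was that of the secreted glycoprotein STC2 (-0.40 ± 0.1). ATF4 itself lay at 0.13 (adjusted p = 0.068) and the pseudokinase TRIB3 at 0.17, neither called. Of 16 heat shock genes 5 fell and 0 rose, also without exposed replicate 2 (median change -0.10). CHORDC1, a co-chaperone of HSP90, went from 9.27, 9.01 and 9.37 to 8.72, 8.79 and 8.92 (-0.41 ± 0.074), HSPA1L fell by 0.33 ± 0.069, DNAJB6 by 0.29 ± 0.057, HSPH1 by 0.25 ± 0.051 and HSF1, the master factor of this response, by 0.17 ± 0.041. The HSF1 call ended without control replicate 2 (adjusted p = 0.0707).

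Genes of the clock, of fasting and of hypoxia came next. Of 17 clock genes 5 rose and 2 fell, with a median change of 0.15, and the counts were 4 and 2 without exposed replicate 2 and 3 and 1 without exposed replicate 1. Besides BHLHE40, PER2, a repressor of the clock, went from 8.16, 8.18 and 8.28 to 8.54, 8.48 and 8.62 (0.34 ± 0.060), NFIL3 from 8.71, 8.89 and 8.89 to 9.20, 9.26 and 9.14 (0.37 ± 0.061), and BHLHE41, the close relative of BHLHE40, rose by 0.40 ± 0.091. DBP, the output factor that opposes NFIL3 at the same DNA sites, fell by 0.38 ± 0.076. The BHLHE41 call ended without exposed replicate 1 (adjusted p = 0.0551), and the fall of DBP was not seen on another probe set, at 0.11.

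Of 33 genes of FOXO, insulin signalling and gluconeogenesis 3 rose and 3 fell (9.09% each, against 3.07% and 7.44% of all genes). The count of rises was 1 without control replicate 1 or control replicate 2, 2 without exposed replicate 2 or control replicate 3, and 1 with the 18S covariate. PCK1, MXI1 and TXNIP, which limits glucose uptake, fell, TXNIP from 11.68, 11.68 and 11.71 to 11.48, 11.49 and 11.52 (-0.19 ± 0.040). DDIT4, the glucose-6-phosphatase gene G6PC1 (0.36 ± 0.11) and CITED2 (0.34 ± 0.086) rose, and the CITED2 call ended without control replicate 1 or 2 (adjusted p up to 0.0566) and with the 18S covariate (0.0815). Of 37 hypoxia and glycolysis genes 1 rose and 6 fell, or 1 and 3 without exposed replicate 2 or 3 and 1 and 2 without control replicate 2. KDM3A, a histone demethylase that hypoxia induces, went from 9.77, 9.97 and 9.87 to 9.27, 9.24 and 9.30, a fall of 0.60 ± 0.050 (adjusted p = 5.23e-08), and EGLN1, a hydroxylase that senses oxygen and targets HIF for degradation, fell by 0.48 ± 0.075. ADM, the peptide adrenomedullin and also a hypoxia target, rose by 0.34 ± 0.071. VEGFA lay at 0.17 and PGK1 at 0.07, neither called.

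Of the junction genes 2 rose (7.14%, against 3.07% of all genes) and 0 fell. Of 28 junction genes TJP1, the tight junction scaffold ZO-1, went from 9.94, 9.91 and 10.01 to 10.22, 10.22 and 10.40 (0.33 ± 0.055, adjusted p = 0.000398), with a second probe set at 0.35, and OCLN, occludin, lay at -0.07, not called. JUP, plakoglobin, rose by 0.18 ± 0.051, a call that ended without control replicate 1 or 3 or exposed replicate 2 or 3 (adjusted p up to 0.142), and with the 18S covariate (0.208).

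Of 34 genes of ribosome biogenesis 8 rose, 1 fell and 25 were not called (median change 0.04), with 7 and 1 called without exposed replicate 2. RRS1, an assembly factor of the large subunit, went from 9.51, 9.36 and 9.51 to 9.85, 9.82 and 9.79 (0.36 ± 0.046, adjusted p = 1.47e-05), the nucleolar helicase DDX21 from 11.16, 11.11 and 11.15 to 11.44, 11.42 and 11.51 (0.31 ± 0.051), and the rRNA methyltransferase NOP2 from 7.99, 8.03 and 7.998 to 8.30, 8.32 and 8.37 (0.33 ± 0.057). RRN3, which recruits RNA polymerase I to ribosomal DNA, rose by 0.28 ± 0.057 and WDR43 by 0.21 ± 0.042. In all these genes the exposed arrays lay above every control, as they did in 350 of the 367 genes that rose. None of 57 ribosomal protein genes was called, with RPL41 at 0.01 ± 0.027 and RPS21 at -0.01 ± 0.028. These values stand beside the higher signal of the 18S 5′ probe set described above. The 18S middle and 28S 5′ probe sets were also higher, by 0.42 and 0.34, while 18S 3′ and 28S middle lay at 0.09 and -0.11. These signals come from the ribosomal RNA itself, not from the listed mRNAs.

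Of 38 mitosis genes 5 fell (13.2%, against 7.44% of all genes) and 0 rose, among them KIF20A, a motor of cytokinesis, from 7.93, 7.85 and 7.999 to 7.55, 7.56 and 7.72 (-0.31 ± 0.064) and HMMR, a spindle protein, by 0.29 ± 0.062. The count of falls was 3 without control replicate 3 or exposed replicate 1, 2 without exposed replicate 2 and 2 with the 18S covariate. Of 49 DNA replication genes 2 rose and 6 fell (12.2%; 1 and 4 without exposed replicate 2, 0 and 7 with the 18S covariate), with the origin recognition subunits ORC4 at -0.27 ± 0.042 and ORC2 at -0.22 ± 0.041 and the primase PRIM1 at -0.24 ± 0.051. Of 22 p53 genes 2 rose and 2 fell (9.09% each, against 3.07% and 7.44% of all genes). TIGAR rose, as did BAX, a protein of mitochondrial cell death, from 8.27, 8.17 and 8.30 to 8.54, 8.67 and 8.82 (0.43 ± 0.066). PLK2, a stress-induced kinase, fell by 0.46 ± 0.090 and XPC, which finds DNA damage, by 0.23 ± 0.053. Of 38 splicing factor genes 2 rose (5.26%) and 5 fell (13.2%). The counts were 1 and 2 without exposed replicate 1, 1 and 3 without exposed replicate 2, 0 and 6 without exposed replicate 3, and 1 and 3 with the 18S covariate. PNISR lay at -0.50 ± 0.098 on the probe set used and at 0.12 and -0.23 on others, not called. SRSF5 lay at -0.21 ± 0.044. CLK1, a kinase that phosphorylates SR proteins, rose from 7.41, 7.50 and 7.52 to 7.79, 7.76 and 7.90 (0.34 ± 0.067). Among 231 genes named ZNF, 14 rose and 23 fell, but 11 and 10 without exposed replicate 2 and 8 and 18 without exposed replicate 1. ZNF248 at -0.60 ± 0.082, ZNF16 at -0.47 ± 0.064 and ZNF638 at -0.46 ± 0.051 were the largest named falls and ZNF232 rose by 0.30 ± 0.046.

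Of 37 enterocyte genes 1 rose (2.7%), CEACAM5, a surface glycoprotein of colon cells, from 7.66, 7.92 and 7.66 to 8.28, 8.12 and 7.97 (0.38 ± 0.074), while its other probe set lay at -0.01. FABP1 lay at 0.03 ± 0.032 and APOA1 at -0.01 ± 0.028, neither called. Of 22 mucus genes 2 rose (9.09%) and 1 fell, or 2 and 0 without exposed replicate 2. The membrane mucin MUC13 rose from 9.58, 9.73 and 9.71 to 9.94, 9.86 and 9.93 (0.23 ± 0.048), the mucin glycosylation enzyme GCNT3 rose by 0.38 ± 0.097 and the trefoil peptide TFF2 fell by 0.22 ± 0.058. Without exposed replicate 1 the GCNT3 and TFF2 calls ended (adjusted p up to 0.107 and 0.109 with 1 array left out). MUC2, MUC5AC and MUC5B lay at 0.12, 0.09 and -0.02 and were not called. Of 31 lipid genes 3 rose (9.68%, against 3.07% of all genes) and 2 fell, or 3 and 1 without exposed replicate 2: SREBF1, the factor of fatty acid synthesis, went from 7.92, 7.85 and 7.72 to 8.24, 8.22 and 8.29 (0.42 ± 0.053), FASN, fatty acid synthase, rose by 0.35 ± 0.062 on 1 of its 2 probe sets (the other at -0.02), and INSIG2, which retains sterol regulators in the ER, went from 10.29, 10.69 and 10.32 to 10.04, 9.95 and 9.90 (-0.47 ± 0.093).

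**Figure D3:**
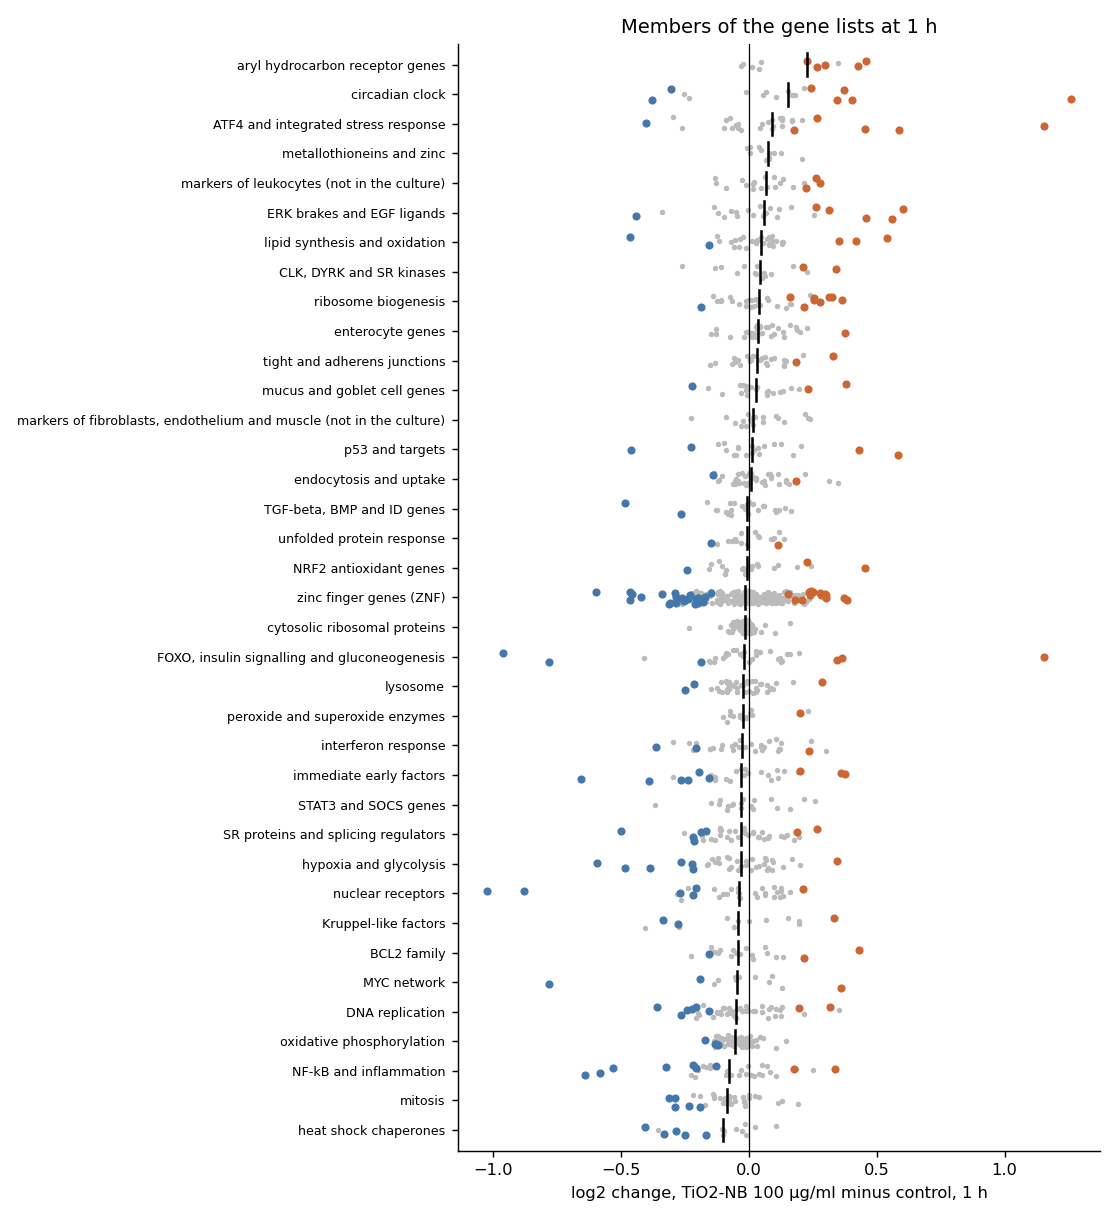
Log2 change at 1 h (100 µg/ml TiO2-NB minus control, horizontal axis) of every measured member of the gene lists reported here, one row per list, ordered by the median change (black bar). Orange points were called higher, blue points lower, and grey points were not called; the aryl hydrocarbon receptor list has the highest median (0.23) and the heat shock list the lowest (-0.10).

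Set against 3.07% of all genes that rose, the share of rises was 45.5% in the aryl hydrocarbon receptor list, 29.4% in the clock list, 23.5% in ribosome biogenesis, 20.8% among the ERK inhibitors and EGF ligands and 17.2% in the ATF4 list. Set against 7.44% that fell, the share of falls was 31.2% in the heat shock list, 22.2% among immediate early genes, 20.6% in the NF-kB list, 16.2% in hypoxia and 15.2% among nuclear receptors. The zinc finger genes, with 6.06% higher and 9.96% lower, and the enterocyte genes, with 2.7% and 0%, lay nearer to the shares of all genes. The lists overlap in a few genes and were chosen with earlier results of these data known, so these shares describe them and test nothing. With the compared groups only, where 46 of all genes rose and 132 fell, there were 3 rises in ribosome biogenesis, 2 each in the clock and ATF4 lists and 1 each in the aryl hydrocarbon receptor and ERK lists. There were then 2 falls each in the NF-kB and nuclear receptor lists, 1 in hypoxia and 0 in the heat shock and immediate early lists.

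The dose comparison asks whether 100 µg/ml of nanobelts differed from 10 µg/ml at 1 h, a matter for the direct test because both doses share the same 3 controls. Of 22215 probe sets 0 (0%) were called by limma, and 1427 had an unadjusted p under 0.05. The 40 genes above, which were chosen for their size at 100 µg/ml, had a median rise of 0.55 there and of 0.41 at 10 µg/ml, and a median fall of -0.77 at both. BHLHE40 rose by 1.26 at 100 and by 1.04 at 10 µg/ml, a difference of 0.22 with a 95% interval of -0.0009 to 0.45, and DDIT4 by 1.15 and 0.86, a difference of 0.29 (0.06 to 0.53, adjusted p = 0.721). FAM13A changed by -1.33 and -1.47, a difference of 0.13 (-0.05 to 0.31), and RARB by -1.02 and -0.79, a difference of -0.24 (-0.43 to -0.05, adjusted p = 0.721). NFKBIA differed by -0.02 (-0.13 to 0.09) and AHR by 0.06 (-0.06 to 0.19). Intervals of this width leave room for modest dose effects in either direction. The genes with the smallest p, CRHR2 at -0.33 ± 0.064, CYP4F11 at 0.47 ± 0.098 and PDLIM3 at 0.22 ± 0.049, did not pass (adjusted p from 0.29 to 0.53).

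Nanobelts and nanotubes were set against each other at 100 µg/ml for 1 h, again by the direct test. It called 0 probe sets (0%), with 2055 at an unadjusted p under 0.05. The 40 genes had a median rise of 0.52 and a median fall of -0.59 under 100 µg/ml of MWCNT, set against the same controls. These genes were chosen for their size with nanobelts, which favours larger changes there. Among the 40 the largest gaps were in genes that fell. ZKSCAN1 changed by -0.83 with nanobelts and by -0.35 with nanotubes, a difference of -0.47 (95% interval -0.80 to -0.14, adjusted p = 0.373). Its other probe set lay at 0.05 with nanobelts, not called. MBP changed by -0.64 and -0.25 (difference -0.39, -0.74 to -0.05, adjusted p = 0.48). FAM13A differed by -0.29 (-0.48 to -0.11, adjusted p = 0.327) and PCK1 by -0.01 (-0.29 to 0.27). By smallest p, NPPB, the natriuretic peptide BNP, stood at 6.44, 6.56 and 6.52 with nanobelts and at 5.73, 5.97 and 5.93 with nanotubes, against 6.49, 6.51 and 6.64 in controls. The nanotube arrays lay below all the others, and the difference of 0.64 ± 0.11 did not pass (adjusted p = 0.0894). The scavenger receptor OLR1 (0.78 ± 0.15) and the Rab regulator TBC1D2 (-0.23 ± 0.044) followed and did not pass either (adjusted p = 0.126 for each).

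**Figure D4:**
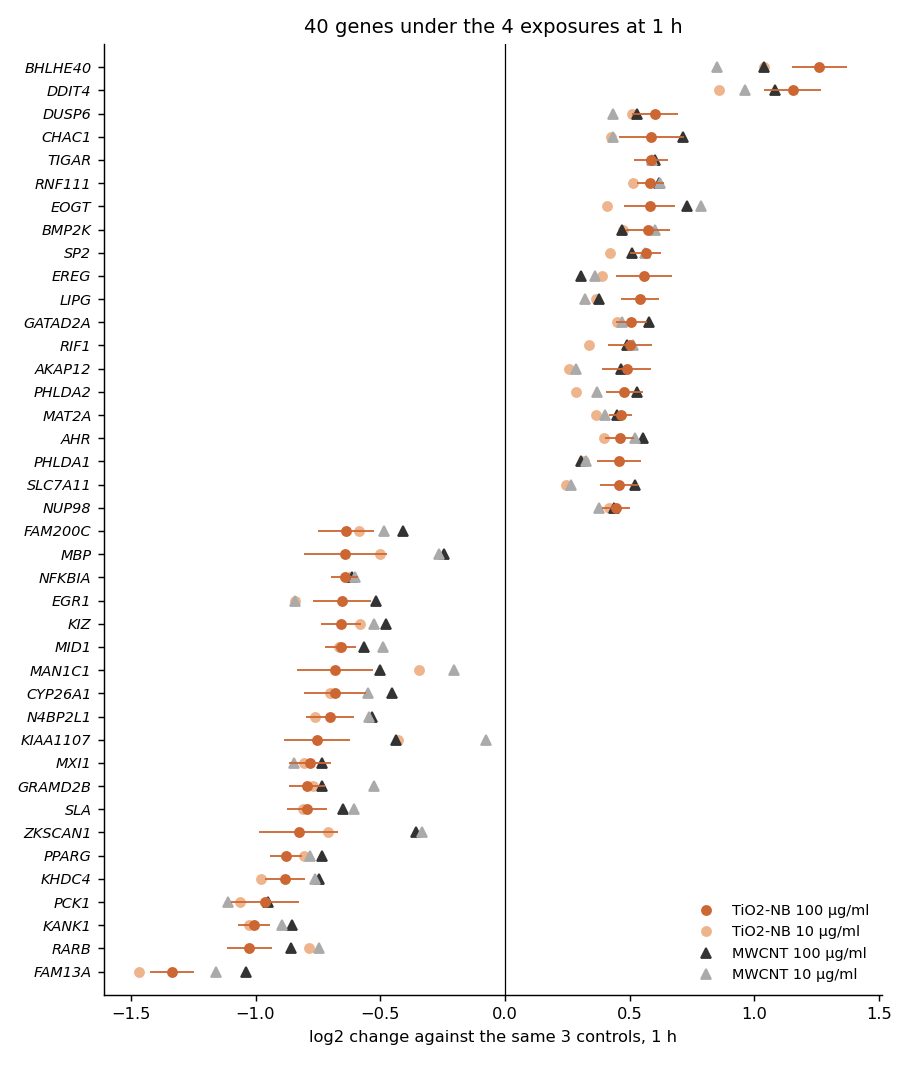
Log2 change against the same 3 controls at 1 h (horizontal axis) of the 20 largest rises and 20 largest falls, for TiO2-NB at 100 µg/ml (dark orange, with the standard error), TiO2-NB at 10 µg/ml (light orange), and MWCNT at 100 (black) and 10 µg/ml (grey triangles). The nanotube point of ZKSCAN1 (-0.35) lies nearer to 0 than its nanobelt point (-0.83), and the 4 comparisons share their controls.

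Few of the genes called at 1 h were called again at 24 h. At the later time 785 probe sets (3.53%) were called between 100 µg/ml and the control of that time. Of the 367 genes that rose at 1 h, 17 were higher and 2 lower at 24 h, and their median change went from 0.24 to 0.05. For the 890 that fell, 25 were lower and 9 higher at 24 h, and the median went from -0.24 to 0.02. Of all 11963 genes 102 were higher and 275 lower at 24 h. The share called higher was thus larger among the risen genes than among all genes. The share called lower among the fallen genes was close to that of all genes. The change between the times was itself tested as an interaction, which called 1298 probe sets (5.84%). It called 79 of the 367 risen genes with a lower value at 24 h and 439 of the 890 fallen genes with a higher one. Over all 11963 genes it called 250 with a lower and 527 with a higher value. The interaction subtracts the 1 h change by which the 367 and 890 genes were chosen. Its sign in them, and their smaller medians at 24 h, are therefore partly set by that choice.

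Controls moved as well between the times, which sets what the exposed cells are compared with. BHLHE40 was at 9.005 (mean) in controls and 10.27 in exposed cells at 1 h, and at 10.64 and 10.87 at 24 h. FAM13A went in the controls from 11.12 to 12.02 and in the exposed cells from 9.78 to 12.11. EGR1 fell in controls from 10.26 to 7.72 and stood at 7.89 in exposed cells at 24 h. PCK1 stood at 10.22 and 9.26 at 1 h and at 8.74 and 8.95 at 24 h. In none of these 4 genes was the 24 h difference called (adjusted p from 0.386 to 0.77).

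Some genes were called in the same direction at both times. PHLDA2 was higher at 24 h by 0.40 ± 0.074, and the ERK-linked EREG by 0.43 ± 0.11, PHLDA1 by 0.35 ± 0.088 and DUSP6 by 0.33 ± 0.093, and CEACAM5 stood at 0.36 ± 0.074. NFKBIA was still lower, at -0.26 ± 0.054, and ZKSCAN1 at -1.01 ± 0.16. MBP, on the probe set that fell at 1 h, was lower by more at 24 h (-1.76 ± 0.17), and CLK1 was higher by more (0.88 ± 0.067). A further set was called at 24 h and not at 1 h: KLF13 changed by -1.50 ± 0.18, PHACTR2 by -1.73 ± 0.13, PLEKHA1 by -1.52 ± 0.15 and GATAD1 by -1.27 ± 0.11, against 0.20 ± 0.18, -0.31 ± 0.13, -0.07 ± 0.15 and 0.01 ± 0.11 at 1 h. The exposed arrays of 24 h varied widely in this set, with an SD of 0.55, 0.40, 0.50 and 0.33 in the same order. The SD of the 24 h controls was 0.05, 0.09, 0.01 and 0.06. For MBP these SDs were 0.40 and 0.02. The standard errors given rest on all groups and do not show this spread.

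**Figure D5:**
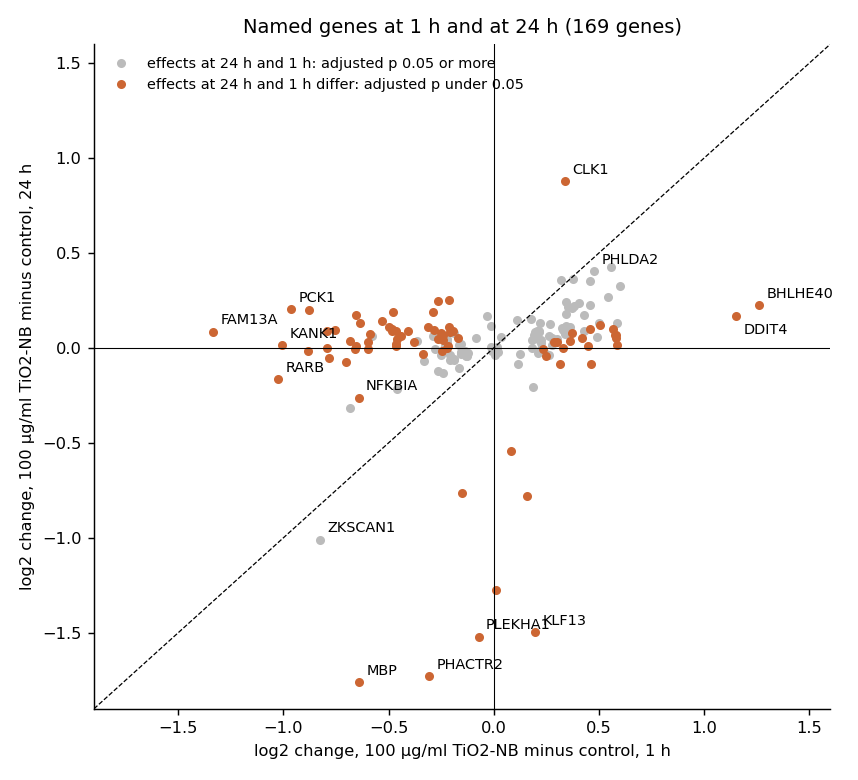
Log2 change of 100 µg/ml TiO2-NB minus control at 1 h (horizontal axis) and at 24 h (vertical axis) for the 169 named genes; the dashed line marks equal change, and orange points are genes whose effects at the 2 times differ by the interaction test. Most points lie near 0 at 24 h, MBP and CLK1 farther from 0 at 24 h than at 1 h.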

How the data were processed

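RNA of the co-culture was hybridised to an Affymetrix array, 3 biological replicates per group. The authors deposited log2 levels of probe sets, made with RMA (background correction, quantile normalisation, median polish), per the submitters' processing notes. Its version and chip definition are, in the sources used here, not given. The values were used as deposited. Quantile normalisation makes each change relative to the other transcripts.

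Group means were fitted over all 30 arrays with limma 3.58.1 in R 4.3.3 (20 residual and 3.68 prior degrees of freedom), two-sided, with Benjamini-Hochberg adjustment over 22215 probe sets; 62 control probe sets were left out. The highest of a gene's single-symbol probe sets (mean over 30 arrays) stands for it, giving 11963 genes. Array number limits precision. The fit was tested on simulated data. Named genes are the 20 largest called rises and falls with non-overlapping groups, up to 5 called members per list (with the 2 highest in level where fewer than 2 were called), and genes with the smallest p in the other comparisons; other members named in the text were chosen after their values were seen. Members and lists were chosen with earlier results of these data known, and 1 list is not reported here. Promoters are RefSeq's (GRCh38.p14), with 33 of 40 named genes matched. Alternatives were the compared groups only, a replicate block, a filter on low levels, a second quantile normalisation, array weights, a mean-variance trend with robust moderation, testing 1 probe set per gene, an 18S covariate and leaving out each array.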

Additional observations from a re-analysis of the deposited data

Results flagged for a closer look

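The effect of 100 µg/ml of nanobelts at 24 h was set against its effect at 1 h by the interaction term of limma, which called 1298 probe sets. Each value here is the effect at 24 h minus the effect at 1 h on the log2 scale, so a positive value means a higher effect at 24 h than at 1 h. The 20 largest rises and 20 largest falls were chosen by the 1 h effect that is subtracted, which favours negative values for rises and positive values for falls. For the rises at 1 h the values were -1.04 for BHLHE40, -0.98 for DDIT4, -0.57 for TIGAR, -0.51 for RNF111, -0.53 for EOGT, -0.51 for BMP2K, -0.47 for SP2, -0.38 for GATAD2A, -0.55 for MAT2A, -0.36 for AHR and -0.43 for NUP98. In the other 9 of the 20 largest rises the difference between the times did not pass.

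For falls at 1 h the differences came to 1.42 for FAM13A, 0.86 for RARB, 1.02 for KANK1, 1.17 for PCK1, 0.86 for KHDC4, 1.08 for PPARG, 0.79 for SLA, 0.88 for GRAMD2B, 0.73 for MXI1 and 0.85 for KIAA1107. They were 0.63 for N4BP2L1, 0.72 for CYP26A1, 0.65 for MID1, 0.67 for KIZ, 0.83 for EGR1, 0.38 for NFKBIA and 0.77 for FAM200C. The NF-kB inhibitor TNFAIP3 (0.68), the histone demethylase KDM3A (0.63), the Ras-like GTPase RIT1 (0.67) and the RNA methyltransferase METTL3 (0.66) were named for the smallest p of the interaction. RIT1 and METTL3 fell at 1 h, by 0.48 ± 0.049 and 0.59 ± 0.050, and RIT1 was higher at 24 h, by 0.19 ± 0.049. ZKSCAN1 and MAN1C1, also among the 20 largest falls, did not pass.

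Other genes had a lower value at 24 h. MBP differed by -1.12, on the probe set that fell at both times. GATAD1 differed by -1.28, PHACTR2 by -1.42, the Golgi SNARE protein GOSR1 by -0.94, the transcription factor KLF13 by -1.69, the nuclear import receptor TNPO2 by -0.62 and the adaptor PLEKHA1 by -1.45, and none of these 6 was called at 1 h. In all 6 the exposed arrays of 24 h varied more than the 24 h controls. The SD was 0.34 against 0.07 for GOSR1 and 0.18 against 0.04 for TNPO2.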

How the results depend on the processing

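For 100 µg/ml against control at 1 h the count of calls was 1872, 269 with the compared groups only and 1175 (without exposed replicate 2) to 1829 with 1 array left out, 1440 to 2261 under the other alternatives and 1828 with the replicate block (1769 shared). Deviations of same-numbered control and exposed arrays correlated at -0.01, 0.06 and 0.21, so the numbers were taken as labels only, and not every array correlated best with its own number (control replicate 2 had 0.06 with exposed replicate 2 and 0.11 with exposed replicate 1). The 24 h count of 785 became 217 with the compared groups only, 1381 with array weights, 376 with 1 probe set per gene and 491 to 900 with 1 array left out (491 without exposed replicate 3 of 24 h). The interaction count of 1298 became 748 with the compared groups only and 848 to 1472 with 1 array left out (848 without the same array). Nanobelts against nanotubes had 0 calls, 3 with the replicate block, 1 each with the filter, with trend and robust variances and with 1 probe set per gene, and 0 to 1 with 1 array left out (1 without MWCNT replicate 1 or 2); the dose comparison had 0 under all alternatives. The causes were not tested, apart from fewer arrays or probe sets in the fit. Of 147 named genes called at 1 h, 97 lost the call with the compared groups only (8 of the 40 largest), 23 with the 18S covariate (0 of the 40) and 48 without at least 1 array, from 13 without control replicate 1 to 29 without control replicate 3. On other probe sets of the same gene the sign turned for BMP2K (-0.056), RIF1 (-0.059), NUP98 (-0.022), RARB (0.065 and 0.12), ZKSCAN1 (0.046), N4BP2L1 (0.23), MBP (0.071, 0.16 and 0.12), MCL1 (0.12, 0.11 and 0.098), DBP (0.11), SMAD3 (0.023), PNISR (0.12), AURKA (0.018), RFC1 (0.0069), ATP6V1C1 (0.044), CEACAM5 (-0.012), FASN (-0.023), PDLIM3 (-0.059) and ITSN2 (-0.22, the 1 of these called, adjusted p = 0.0234). Other probe sets existed for 65 of the 147 genes, 111 in all. Of these 36 were called in the same direction, 52 had the same sign and were not called, and 23 turned. Among the 52 were probe sets of EGR1 (-0.37, adjusted p = 0.162), PHLDA2 (0.12), SLC7A11 (0.025), METTL3 (-0.096), SQSTM1 (0.028) and VDR (0.075, 0.072 and 0.073). Of the 1872 calls, 258 were also made with the compared groups only, where the spread rests on 3 arrays per group.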

Other observations

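Among survival and signalling genes not described above, SMAD3, the transcription factor of TGF-beta, fell from 8.58, 8.78 and 8.62 to 8.23, 7.94 and 8.36 (-0.49 ± 0.084, adjusted p = 0.000469). Its other probe sets lay at -0.23, called, and at -0.09 and 0.02, not called. CCN2, a TGF-beta and YAP target, lay at -0.27 ± 0.080 with overlapping groups. SMAD3 and CCN2 are the 2 falls among 27 TGF-beta, BMP and ID genes (7.41%, against 7.44% of all genes). The CCN2 call ended without control replicate 1, control replicate 3 or exposed replicate 1 (adjusted p up to 0.271). Of 20 BCL2 family genes 2 rose (10%, against 3.07% of all genes) and 1 fell (5%, against 7.44%). BAX and BCL2L1, which protects mitochondria, rose, the latter by 0.22 ± 0.051, and MCL1 fell. In the MYC network of 12 genes MYC rose (8.33%) and both MXI1 and MNT (-0.19 ± 0.059), which compete with it, fell (16.7%). Leaving out control replicate 3 ended the BCL2L1 call (adjusted p = 0.0664), and the MNT call was lost on leaving out any 1 of 4 of the 6 arrays (up to 0.202). The other BCL2L1 probe sets were called higher, at 0.39 and 0.41.

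Organelle genes showed few calls. SQSTM1, the autophagy receptor p62, went from 9.57, 9.61 and 9.53 to 9.93, 9.86 and 9.79 (0.29 ± 0.037, adjusted p = 1.7e-05), with another probe set at 0.03, not called. It was the 1 rise among 41 lysosome genes (2.44%), of which 2 fell (4.88%), among them the proton pump subunit ATP6V1C1 (-0.21 ± 0.041). The other ATP6V1C1 probe sets lay at -0.25, called, and at 0.04, not called. Of 65 oxidative phosphorylation genes 4 fell (6.15%, a smaller share than the 7.44% of all genes, and 2 without exposed replicate 2), by 0.12 to 0.17, and each call ended on leaving out any 1 of at least 3 of the 6 arrays, except that of NDUFS4 (-0.17 ± 0.039). Of 40 endocytosis genes 1 rose and 1 fell (2.5% each), and of 19 genes of the unfolded protein response 1 and 1 (5.26% each). Of 16 CLK and DYRK kinases 2 rose (12.5%), and of 19 STAT3 and SOCS genes 0 were called. Of 32 interferon genes 1 rose (3.12%) and 2 fell (6.25%), or 1 and 0 without exposed replicate 2. Over all genes 3.07% rose and 7.44% fell. Among leukocyte markers 3 of 20 rose (15%, against 3.07% of all genes). LYZ, a lysozyme that gut epithelium makes too and that stood at 10.98 in controls, rose by 0.28 ± 0.077. CD53 rose by 0.26 ± 0.066 and NKG7 by 0.22 ± 0.066 at levels of 5.20 and 4.63. PTPRC, the defining leukocyte gene, stood at 3.62 in controls and 3.64 in exposed cells. The count of rises was 1 without control replicate 3, exposed replicate 1 or exposed replicate 2 and 1 with the 18S covariate, their part in the other results was not tested, and 0 of 21 markers of fibroblasts, endothelium and muscle were called.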
